A study of Mus musculus with 6 samples.

Results

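The resistin-like molecule family of the mouse comprises 4 genes, Retnla, Retnlb, Retnlg and Retn, and its rows were taken by gene symbol from count tables that list 23238 distinct symbols. All 4 were found. Gene expression was measured by RNA sequencing of lung tissue from mice labelled WT in genotype, in a study titled as one of chronic PM exposure. One group received PM and the other its vehicle, PBS, both by the route abbreviated i.t. in the labels, with 3 samples deposited in each. The labels do not spell out PM and give no dose, duration, strain, sex or age, and nothing states that the samples came from separate animals, so that p-values measure the spread between these samples, which may be technical.

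The proteins of this family are small, secreted and rich in cysteine. RELM-alpha, the product of Retnla, is known in mice as a product of macrophages and epithelium exposed to the type 2 cytokines IL-4 and IL-13, which signal through the IL-4 receptor alpha chain to the transcription factor STAT6. RELM-beta, the product of Retnlb, is best known from goblet cells of the gut, RELM-gamma, the product of Retnlg, from bone marrow and neutrophils, and resistin, the product of Retn, from white fat cells in the mouse. Humans have counterparts of Retn and Retnlb but not of Retnla and Retnlg.

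The deposited values of PBS replicate 2 equalled those of PBS replicate 1 at each of the 23282 entries, so the pair entered once, as PBS replicate 1, which left 3 PM and 2 PBS libraries. Total counts ranged from 7410200 to 8827202, at which 3 counts, the limit that a count of 0 allows, correspond to 0.348 to 0.430 CPM. CPM are counts scaled to 1000000 per library with TMM (trimmed mean of M values) factors applied, and this limit covers counting error only. Lung markers of alveolar type 1 and 2, club, ciliated and endothelial cells (Ager, Sftpc, Scgb1a1, Foxj1, Cldn5 and Pecam1) were present in every library. Of these 6 edgeR called 0, with 1 higher and 2 lower at p under 0.05 unadjusted (7.26% and 6.05% of all tested genes). DESeq2 called 1 as lower (0.818% of all tested genes) and limma-voom 0. The share of Rn45s, the precursor of ribosomal RNA, was 23.6%, 25.4% and 15.7% of counts in PM replicates 1, 2 and 3, against 18.2% and 16.3% in PBS replicates 1 and 3, and without it and the haemoglobin genes the number of called genes was also 32. In bulk tissue, a change in the number of cells of a type and a change in RNA per cell cannot be told apart.

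Retnla showed the widest separation of the family. Its level was 1016, 5323 and 1222 CPM in PM replicates 1, 2 and 3, against 34.1 and 13.5 CPM in PBS replicates 1 and 3. The lowest PM library stood 29.8-fold above the highest PBS library, so the groups were far from overlapping. By CPM, Retnla had a rank of 42, 8 and 32 among all genes in PM replicates 1, 2 and 3, against 4811 and 8251 in the PBS libraries, and it took 0.0988%, 0.492% and 0.131% of all counts in the PM libraries. The 3 PM libraries also differed among themselves, the highest being 5.24-fold above the lowest.

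As group means, Retnla stood at 2520 ± 2429 CPM in PM (SD, n = 3) and 23.8 ± 14.6 CPM in PBS (SD, n = 2). The fitted log2 fold was 6.72 ± 1.49 SE, a 106-fold difference, and 10 of 14057 tested genes had a larger one. By edgeR's quasi-likelihood test it missed the threshold, a Benjamini-Hochberg adjusted p below 0.05 (edgeR adjusted p = 0.247, unadjusted 0.0171). On the same counts Retnla was called by DESeq2 (adjusted p = 1.85e-06, 2.72% of genes called) and by limma-voom (adjusted p = 0.0365, 0.121% called). Without PM replicate 2 the log2 fold was 5.55 (edgeR adjusted p = 0.141).

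Across the family, 0 of the 3 members that passed the filter on low counts were called by edgeR, where 0.228% of all tested genes were called (0.142% as higher). DESeq2 called 2 of them, Retnla and Retnlg, and limma-voom called 1, Retnla; these tools called 1.9% and 0.0854% of genes as higher. At an unadjusted edgeR p below 0.05 all 3 were higher in PM, where 7.26% of tested genes were (6.05% were lower). Every PM library lay above every PBS library for these 3, as it did for 15.5% of tested genes. Retnlb had too few counts to pass the filter.

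**Figure D1:**
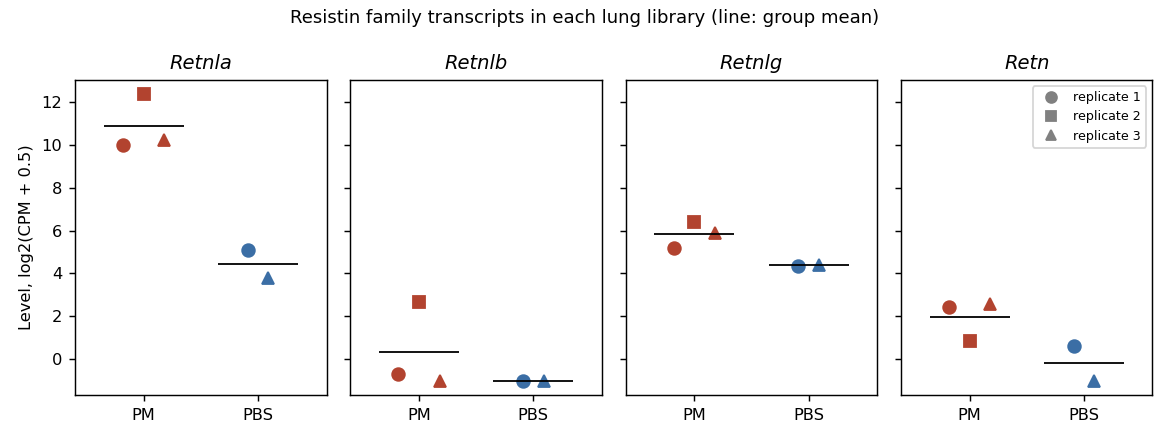
Level of each family member in every library, as log2(CPM + 0.5) on the vertical axis, with PM left of PBS in each panel, one symbol per replicate number and a line at the group mean. Retnla lies highest in all 3 PM libraries, Retnlb is above its PBS level only in PM replicate 2 beyond 1 count, and Retn is lowest among PM libraries in replicate 2.

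Retnlb was detected almost wholly in 1 library. It had 1, 41 and 0 counts in PM replicates 1, 2 and 3, against 0 counts in both PBS libraries. The 41 counts equal 5.88 CPM, with an exact 95% Poisson interval of 4.22 to 7.97 CPM that covers counting error only, at least 16.4-fold above the mean limit of the PBS libraries. In the other libraries Retnlb was not detectable at this depth beyond that single count. With no filter on low counts its unadjusted p was 0.225 by edgeR's quasi-likelihood test (Benjamini-Hochberg adjusted p = 0.697), and without PM replicate 2 its PM mean was 0.0596 CPM.

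Retnlg was higher in each PM library than in either PBS library. It had 35.8, 84.6 and 58.1 CPM in PM replicates 1, 2 and 3, against 19.9 and 20.7 CPM in PBS replicates 1 and 3. The PBS libraries lay within counting error of each other, and the lowest PM library was 1.72-fold above the higher PBS library. Its log2 fold was 1.54 ± 0.36 SE (means 59.5 ± 24.4 CPM in PM, SD, n = 3, and 20.3 ± 0.574 CPM in PBS, SD, n = 2). In edgeR's test the unadjusted p was 0.00484 and the adjusted p 0.151. Retnlg was called by DESeq2 (adjusted p = 0.000128). It also passed edgeR's test when PM replicate 1 (log2 fold 1.81, Benjamini-Hochberg adjusted p = 0.0254, 0.0867% of genes called) or PM replicate 2 (log2 fold 1.21, adjusted p = 0.0419, 0.762% called) was left out. With all 6 tables, 1 library thus counted as 2, Retnla and Retnlg were both called (edgeR adjusted p = 0.0221 and 0.0256), where 4.59% of genes were.

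Retnla and Retnlg share sequence that bears on these counts. Their transcripts in GENCODE M21 were identical at 82.0% of aligned positions, and 33 of the 564 30-base words of Retnlg also occurred in Retnla. No 50-base stretch was the same in both, and 8% of the 50-base windows of Retnla were found in Retnlg with up to 2 mismatches, whereas no window of 75 bases was. The amount of Retnlg above its PBS mean equalled 1.52%, 1.21% and 3.09% of the Retnla level in PM replicates 1, 2 and 3. No source used here gives the read length or how reads with several matches were handled, and the part of shared reads in the Retnlg counts was not tested. Retnlb and Retn had no 30-base word in common with Retnla or Retnlg.

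The 2 genes also resemble each other upstream. The promoter windows below, from RefSeq for GRCm38.p6, run from 250 bases before to 50 bases after the start of each gene on the plus strand, and are shown because these neighbours on chromosome 16 were both higher in every PM library and carry the same motif. Capitals mark matches to a STAT6-type motif (TTC and GAA with any 4 bases between them, a pattern that is its own reverse complement, so that both strands are covered) and a C/EBP-type motif (TTGCNNAA, both strands), and matches of the motifs do not overlap.
Retnla, chr16:48842359-48842658, plus strand: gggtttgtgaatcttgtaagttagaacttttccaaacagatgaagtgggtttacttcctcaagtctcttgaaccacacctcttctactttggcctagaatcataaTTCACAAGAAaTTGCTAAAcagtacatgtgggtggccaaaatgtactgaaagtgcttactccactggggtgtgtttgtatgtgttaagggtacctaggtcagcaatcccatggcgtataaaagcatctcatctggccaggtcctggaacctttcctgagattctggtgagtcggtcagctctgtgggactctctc
Retnlg, chr16:48872358-48872657, plus strand: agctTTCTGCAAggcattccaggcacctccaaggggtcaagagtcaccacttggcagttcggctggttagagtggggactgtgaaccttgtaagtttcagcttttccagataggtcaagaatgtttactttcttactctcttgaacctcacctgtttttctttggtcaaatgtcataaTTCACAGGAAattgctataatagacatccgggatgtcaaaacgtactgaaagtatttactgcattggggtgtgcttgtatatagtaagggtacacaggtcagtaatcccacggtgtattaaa

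The STAT6-type match of Retnla spans positions -145 to -136 from the start, and 1 base after it a C/EBP-type match spans -134 to -127. The STAT6-type match of Retnlg spans -72 to -63 from the start given by RefSeq, and its C/EBP-type match lies apart, at -246 to -239. Over 228 aligned positions the windows were 78.1% identical. Among 32851 promoter windows of the same length, 6.95% held the STAT6-type and 10.8% the C/EBP-type motif. The window of Retn held neither, and none of the 3 windows held the shorter spacing of other STAT factors, with 3 bases between TTC and GAA (8.30% of windows). Retnlb had no entry among these promoters.

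Retn was a low transcript with another pattern across libraries. It had 4.91, 1.29 and 5.42 CPM in PM replicates 1, 2 and 3 (42, 9 and 43 counts), against 1.04 and 0 CPM in PBS replicates 1 and 3 (9 and 0 counts). PM replicate 2, the library highest in Retnla, Retnlb and Retnlg, was the lowest PM library in Retn and stood only 1.24-fold above PBS replicate 1, within counting error of it. The log2 fold was 2.84 ± 1.01 SE (edgeR adjusted p = 0.263, unadjusted 0.0202). DESeq2 did not call it either (adjusted p = 0.0734). Set against PBS replicate 3 alone, at 0 counts, the PM mean was at least 10.5-fold higher, and the log2 fold was 1.89 without that library. Of the 1549 30-base words in the Retn transcripts, 98 also occur in transcripts of other genes.

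Per kilobase of exon, the order of the family by group mean began with Retnla and Retnlg in both groups. In PM it ran from Retnla at 4208 ± 4056 CPM per kb (SD, n = 3) through Retnlg at 100.3 ± 41.2 to Retnlb at 2.87 ± 4.83 and Retn at 2.45 ± 1.43. In PBS Retnla stood at 39.7 ± 24.3 and Retnlg at 34.3 ± 0.969 CPM per kb (SD, n = 2), followed by Retn at 0.330 ± 0.467 and Retnlb at 0. The last 2 of the PM order, and Retnla and Retnlg in PBS, lay within the spread of each other. Retnlb stood above Retn only in PM replicate 2. In PM replicates 1 and 3 Retn had 3.11 and 3.43 CPM per kb, against 0.168 and 0 for Retnlb. Retnla was 28.1, 62.3 and 20.8 times Retnlg per kb in PM replicates 1, 2 and 3, against 1.69 and 0.642 times in PBS replicates 1 and 3. It made up 95.1% to 98.3% of the family's counts in PM libraries, against 61.9% and 39.4% in the PBS libraries.

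**Figure D2:**
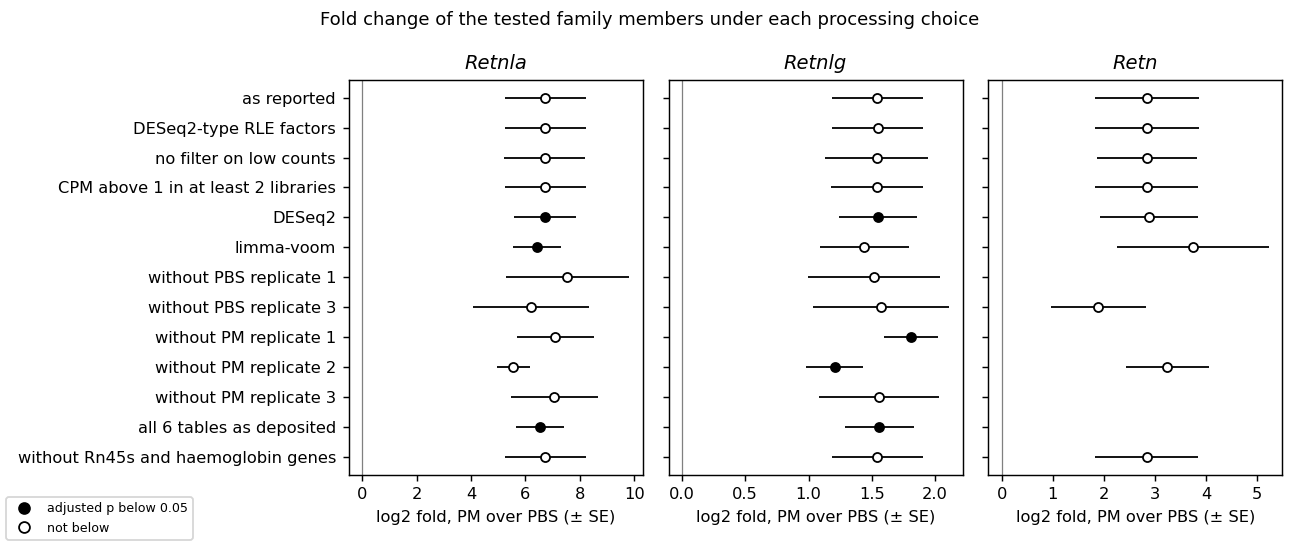
Log2 fold of PM over PBS with its standard error (horizontal axis) for Retnla, Retnlg and Retn under each processing choice shown (rows); filled points have an adjusted p below 0.05, and a missing point means that the gene failed the filter or, for Retn without PBS replicate 1, that the remaining PBS library was at 0. Every fold shown is above 0, while the calls change with the tool and with single libraries.

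Among the cytokines upstream of Retnla, those of T cells and innate lymphoid cells (Il4, Il13, Il5) and the epithelial cytokine Il25 had 0 to 2 counts per library, whereas the epithelial cytokines Il33 and Tslp were measured in every library. These cytokines other than Il33 are named after their values were seen. Il4 had 1, 0 and 0 counts in PM replicates 1, 2 and 3, against 0 and 2 in PBS replicates 1 and 3. Il13 had 1 count in PM replicate 2 and Il5 2 counts in PM replicate 1, with no other count of either, and Il25 had no count in any library. In the list of the type 2 cytokine axis upstream of Retnla and Retnlb, 13 of 19 genes were tested, and 0 rose or fell in edgeR's test. An unadjusted p under 0.05 was reached by 5 in the higher and 1 in the lower direction, against 7.26% and 6.05% of all tested genes. DESeq2 called 3 as higher and limma-voom 0, where these tools called 1.9% and 0.0854% of all tested genes as higher. The median log2 fold was 0.04, beside 0.01 over all tested genes. The list, as all gene lists here, was chosen with earlier results of these data known, so such shares are a description only.

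Of that list, Il1rl1, the IL-33 receptor, had 9.82, 8.74 and 6.56 CPM in PM replicates 1, 2 and 3, against 2.67 and 1.85 CPM in PBS replicates 1 and 3. The alarmin Il33 had 62.1, 103.3 and 61.2 CPM in the PM libraries, against 30.9 and 43.3 CPM in the PBS libraries. Neither overlapped between groups, and neither passed edgeR's test (Benjamini-Hochberg adjusted p = 0.0592 and 0.179). Every PM library lay above every PBS library for 15.5% of all tested genes. Tslp had 3.62, 6.59 and 5.30 CPM in PM, against 5.10 and 5.06 CPM in PBS, and the groups overlapped. Cebpb, which encodes a C/EBP transcription factor, had 105.8, 103.8 and 109.6 CPM in PM, against 73.9 and 69.8 CPM in PBS. Its log2 fold was 0.57 ± 0.11 SE and its edgeR adjusted p 0.0592. The gene in the lower direction, named after its values were seen, was Il4ra, the receptor chain for IL-4 and IL-13. It had 114.1, 100.8 and 123.0 CPM in PM, against 144.3 and 141.3 CPM in PBS, with no overlap (log2 fold -0.34 ± 0.12 SE, edgeR adjusted p = 0.236, unadjusted 0.0154). Such a separation with PM lower was seen for 16.1% of all tested genes. Il13ra1 and Crlf2, also named after their values were seen, went the other way, with no overlap. Il13ra1 had 25.7, 34.8 and 21.4 CPM in PM, against 18.4 and 19.1 CPM in PBS (edgeR adjusted p = 0.310, unadjusted 0.0305). Crlf2 had 37.0, 32.7 and 31.7 CPM in PM, against 24.7 and 26.7 CPM in PBS (edgeR adjusted p = 0.315, unadjusted 0.0316). Stat6, named after its values were seen, averaged 62.7 ± 8.14 CPM in PM (SD, n = 3) and 69.6 ± 4.64 CPM in PBS (SD, n = 2), and the groups overlapped. Exons of Cebpb, Stat6 and Il4ra overlap those of Tmem189, Nab2 and Gm44876 on the opposite strand, so their reads may not be fully their own.

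Genes of macrophages in the alternatively activated state, a state for which Retnla is itself a common marker in mice, were mostly higher in PM. All 13 listed genes were tested: 1 rose (0.142% of all tested genes) and 0 fell. At p under 0.05 unadjusted, 8 were higher and 1 lower, against 7.26% and 6.05% of all tested genes. DESeq2 called 6 as higher (1.9% of all tested genes) and limma-voom 0. The median log2 fold was 1.65, beside 0.01 over all tested genes, and 10 of the 13 had no overlap between groups with PM higher (15.5% of all tested genes). This list too was chosen with earlier results known, so these shares are a description only. The gene that rose was Ccl17, a chemokine for CCR4-bearing cells, with 18.3, 17.2 and 17.7 CPM in PM replicates 1, 2 and 3, against 4.17 and 7.16 CPM in PBS replicates 1 and 3 (edgeR adjusted p = 0.0379). Its call was lost when PM replicate 1 (edgeR adjusted p = 0.0954), PBS replicate 1 (0.444) or PBS replicate 3 (0.0883) was left out, and limma-voom did not call it (adjusted p = 0.0888). Clec10a, a galactose-binding lectin of macrophages and dendritic cells, had 29.6, 32.1 and 25.5 CPM in PM, against 16.6 and 12.8 CPM in PBS. Alox15, a lipoxygenase, had 5.03, 6.02 and 2.27 CPM in PM, against 0.232 and 0 CPM in PBS. Arg1, arginase, named after its values were seen, was high in 1 library alone, with 1.99, 27.1 and 3.28 CPM in PM, against 2.43 and 1.24 CPM in PBS.

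Retnla did not share the order of libraries with every macrophage gene. The summed level of the 13 genes was 1071, 1657 and 939.2 CPM in PM replicates 1, 2 and 3, against 519.9 and 629.8 CPM in PBS replicates 1 and 3. Of that sum Chil3 held 590.7, 1014 and 453.0 CPM in PM, against 18.2 and 126.9 CPM in PBS. Tgm2 held 277.3, 335.8 and 307.4 CPM in PM, against 386.2 and 395.4 CPM in PBS. Both were named after their values were seen. The difference in the sum thus rests largely on Chil3. Of 9 alveolar macrophage genes, all tested, 0 rose or fell and 4 were higher with p under 0.05 unadjusted (7.26% of all tested genes). DESeq2 called 4 as higher (1.9% of all tested genes) and limma-voom 0 (median log2 fold 0.89, beside 0.01 for all tested genes). Plet1 and Atp6v0d2, both abundant in alveolar macrophages, had 49.0 to 66.6 and 47.2 to 54.9 CPM in PM, against 27.5 to 36.8 and 10.4 to 26.7 CPM in PBS, and Krt79 had 14.0 to 19.5 CPM in PM, against 5.68 to 9.63 CPM in PBS. Marco, a scavenger receptor named after its values were seen, had 52.1, 1.72 and 55.4 CPM in PM replicates 1, 2 and 3, against 0.811 and 3.83 CPM in the PBS libraries. Marco was thus near its PBS level in the PM library where Retnla was highest.

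In mice, alveolar type 2 cells can also make RELM-alpha. All 9 listed genes of these cells were tested: 0 rose or fell and 2 were higher with p under 0.05 unadjusted (7.26% of all tested genes). DESeq2 called 1 as higher (1.9% of all tested genes) and limma-voom 0. The median log2 fold was 0.08, beside 0.01 for all tested genes, and 0.27 without PBS replicate 1. The surfactant proteins Sftpa1 and Sftpd had log2 folds of 0.40 ± 0.14 SE and 0.88 ± 0.26 SE, and Napsa, a protease that processes surfactant proteins, of 0.19 ± 0.12 SE. Sftpd had 1820, 2753 and 1625 CPM in PM replicates 1, 2 and 3, against 1317 and 931.7 CPM in PBS replicates 1 and 3. None of these 3 passed the test (edgeR adjusted p = 0.224, 0.223 and 0.517).

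The summed level of mucous cell genes, like Retnlb and Retnla, was highest in PM replicate 2. Of 11 listed genes, 9 were tested and 0 rose or fell, with 6 higher with p under 0.05 unadjusted (7.26% of all tested genes). DESeq2 called 7 as higher (1.9% of all tested genes) and limma-voom 0 (median log2 fold 4.45, beside 0.01 for all tested genes). The summed level of the list was 560.3, 2272 and 138.8 CPM in PM replicates 1, 2 and 3, against 9.04 and 9.26 CPM in PBS replicates 1 and 3. Of that sum Clca1, named after its values were seen, held 288.2, 1161 and 33.9 CPM in PM and 0 CPM in both PBS libraries. Itln1 held 139.2, 700.3 and 48.7 CPM in PM, against 0.464 and 0.741 CPM in PBS. The sum in PM thus rested largely on these genes. For the sum, PM replicate 2, the library with 41 Retnlb counts, was highest, and PM replicate 3 was lowest among the PM libraries. Retnla differed in this, with 1016 CPM in PM replicate 1 and 1222 CPM in PM replicate 3. Retnlb itself had 1 and 0 counts in PM replicates 1 and 3, within counting error of each other, so these 2 cannot be ordered by it. Muc5ac, the secreted mucin induced in airway goblet cells, named after its values were seen, had 1.05, 5.88 and 0 CPM in PM and 0 CPM in both PBS libraries. Agr2, a folding enzyme of secreted mucins, had 7.01, 16.1 and 2.02 CPM in PM, against 0.348 and 1.24 CPM in PBS. Bpifb1, a secreted airway protein, and the transcription factor Foxa3 were also highest in PM replicate 2, at 92.6 and 4.59 CPM.

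**Figure D3:**
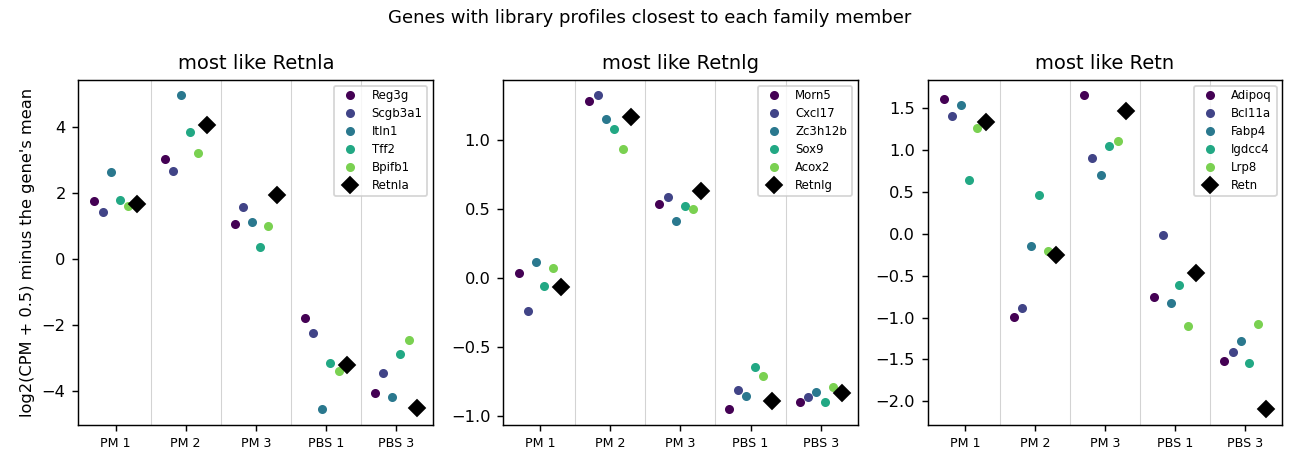
Level in each library as log2(CPM + 0.5) minus the gene's own mean (vertical axis) for Retnla, Retnlg and Retn (black diamonds) and the 5 genes closest to each (coloured points), with PM libraries left of PBS libraries. The genes closest to Retnla and Retnlg peak in PM replicate 2, whereas Retn and the 5 genes closest to it are lowest there among the PM libraries.

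Likeness to each member was measured as the root mean square difference, over 5 libraries, between centred log2(CPM + 0.5) profiles of 13256 tested genes. With so few libraries, 3 of them in 1 group, likeness is a description only. The genes closest to Retnla were Reg3g, a secreted antibacterial lectin (difference 0.90), Scgb3a1, a secretoglobin of the airways (0.92), the lectin Itln1 (0.93), the trefoil peptide Tff2 (1.02) and Bpifb1 (1.09). Itln1, Tff2 and Bpifb1 are also on the list of mucous cell genes. Tff2 and Bpifb1 were not among the 5 with a pseudocount of 2. Scgb3a1 had 310.8, 739.2 and 351.3 CPM in PM replicates 1, 2 and 3, against 24.1 and 10.2 CPM in PBS replicates 1 and 3. All 5 encode secreted proteins, and none was called (edgeR adjusted p = 0.158 to 0.360).

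The genes closest to Retnlg were Morn5 (0.09), Cxcl17, a mucosal chemokine (0.11), Zc3h12b (0.13), Sox9, a transcription factor of epithelial progenitors (0.13), and Acox2, a peroxisomal oxidase (0.16). Morn5 and Zc3h12b were low, with 0.579 and 0.617 CPM, and 0.232 and 0.247 CPM, in PBS replicates 1 and 3. The values of Zc3h12b there lay below the limit that a count of 0 allows. The differences take no account of counting error. Cxcl17 had 20.2, 60.6 and 36.2 CPM in PM replicates 1, 2 and 3, against 13.4 and 13.0 CPM in PBS replicates 1 and 3. With a pseudocount of 2 in place of 0.5, Cxcl17 remained among the 5 and the other genes did not.

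Genes of neutrophils, the cells in which mouse Retnlg is best known, followed its order across libraries only in part. Of 15 listed genes, 14 were in the tables and 10 were tested, and 0 rose or fell in edgeR's test. With p under 0.05 unadjusted, 3 stood higher in PM, against 7.26% of all tested genes. DESeq2 called 4 as higher (1.9% of all tested genes) and limma-voom 1 (0.0854%). The median log2 fold was 1.19, beside 0.01 for all tested genes. Without PM replicate 3 this median was -0.07, and without PBS replicate 1 it was 1.96. The summed level was 483.6, 615.3 and 1144 CPM in PM replicates 1, 2 and 3, against 329.5 and 168.1 CPM in PBS replicates 1 and 3. The collagenase Mmp8 had 12.3, 15.0 and 24.1 CPM in PM, against 5.91 and 4.32 CPM in PBS. The granule proteins Ltf and Lcn2 were highest in PM replicate 2, at 25.5 and 354.1 CPM, as Retnlg was. Ngp and Camp, which failed the filter and were named after their values were seen, were lowest there among the PM libraries. Ngp had 4, 0 and 15 counts in PM replicates 1, 2 and 3, and Camp 5, 1 and 18. In PBS replicates 1 and 3 they had 3 and 1, and 1 and 0 counts.

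In contrast to Retnlg, the calprotectin subunit S100a8 had 88.9, 36.4 and 341.9 CPM in PM replicates 1, 2 and 3, against 90.6 and 41.7 CPM in the PBS libraries. The chemokine receptor Cxcr2 had 6.90, 4.30 and 29.3 CPM in PM, against 8.34 and 5.56 CPM in PBS. Both were named after their values were seen, and for both PM replicate 2, where Retnlg was highest, held the lowest value of the 5 libraries. The part of neutrophil number in the Retnlg level was not tested.

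At a pseudocount of 0.5, Retn was closest in profile to Adipoq, which encodes adiponectin of fat cells (0.46), followed by Bcl11a (0.53), Fabp4, a fatty acid binding protein of fat cells and endothelium (0.53), Igdcc4 (0.55) and Lrp8, a lipoprotein receptor family member (0.56). With a pseudocount of 2, Bcl11a and Lrp8 remained among the 5, and the fat cell genes Adipoq and Fabp4 did not, nor did Igdcc4. Adipoq had 10.4, 1.29 and 10.7 CPM in PM replicates 1, 2 and 3, against 1.62 and 0.741 CPM in PBS replicates 1 and 3. PM replicate 2 thus lay between the PBS libraries for Adipoq. Of the 8 white adipocyte genes 7 were tested and 0 rose or fell, with 3 higher with p under 0.05 unadjusted (7.26% of all tested genes). DESeq2 called 2 as higher (1.9% of all tested genes) and limma-voom 0 (median log2 fold 1.16, beside 0.01 for all tested genes). The summed level of the list was 219.6, 128.0 and 184.2 CPM in PM replicates 1, 2 and 3, against 119.5 and 113.4 CPM in PBS replicates 1 and 3.

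Of the other white fat cell genes, some shared the low value of PM replicate 2 and some did not. Plin1, which coats lipid droplets of fat cells, had 2.57, 0.573 and 2.27 CPM in PM, against 0.464 and 0.247 CPM in PBS. Thrsp, a regulator of lipogenesis, had 21.5, 11.6 and 15.6 CPM in PM, against 8.34 and 6.17 CPM in PBS. Cfd, adipsin, named after its values were seen, had 80.8, 12.2 and 61.0 CPM in PM, against 15.1 and 1.73 CPM in PBS, so that PM replicate 2 again lay between the PBS libraries. By contrast Plin4, of the same lipid droplet family as Plin1, had 31.3, 37.1 and 27.7 CPM in PM, against 31.9 and 29.4 CPM in PBS, and was highest in PM replicate 2. The lipase gene Lipe had 58.6, 58.3 and 47.2 CPM in PM, against 55.2 and 66.4 CPM in PBS. The groups overlapped for both of these genes, which were named after their values were seen. The part of fat cells in the Retn level was not tested. Of 5 brown adipocyte genes 3 were tested and 0 rose or fell, with 1 higher with p under 0.05 unadjusted (7.26% of all tested genes). DESeq2 called 1 as higher (1.9% of all tested genes) and limma-voom 0. The median log2 fold was -0.08, beside 0.01 for all tested genes, and 0.23 without PBS replicate 1 or -0.33 without PBS replicate 3. Ucp1, the defining brown fat gene, and Elovl3 were at 0 counts in all libraries, Cidea had 2.92 to 5.45 CPM in PM, against 0.370 to 0.464 CPM in PBS, and Cox8b and Dio2 had log2 folds of -0.08 ± 0.37 SE and -0.33 ± 0.42 SE.

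Eosinophil genes differed widely in level, with Ear6 highest. Of 6 listed genes 3 were tested and 0 rose or fell, with 2 higher with p under 0.05 unadjusted (7.26% of all tested genes). DESeq2 called 1 as higher (1.9% of all tested genes) and limma-voom 0. The median log2 fold was 1.24, beside 0.01 for all tested genes, and 0.69 without PM replicate 1. Ccr3, the eotaxin receptor, had 1.99, 4.30 and 1.13 CPM in PM replicates 1, 2 and 3, against 0 and 0.617 CPM in PBS replicates 1 and 3. Ear6, an eosinophil-associated ribonuclease whose reads may be divided with close paralogs, had 44.4, 41.6 and 26.6 CPM in PM, against 10.8 and 21.1 CPM in PBS. Siglecf, which alveolar macrophages share with eosinophils, overlapped between groups, with 5.59 to 11.6 CPM in PM and 2.67 to 8.15 CPM in PBS. Prg2, Epx and Il5ra, named after their values were seen, were near absent and failed the filter. Prg2 had 6, 6 and 0 counts in PM replicates 1, 2 and 3, against 5 and 0 in PBS replicates 1 and 3. Epx had 1, 3 and 0 counts in PM, against 0 and 0 in PBS, and Il5ra 3, 2 and 1, against 2 and 0.

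Proteins reported to bind or carry the signal of resistin-family ligands showed no called change in transcript level. All 5 listed genes were tested, and 0 rose or fell, with 1 higher with p under 0.05 unadjusted (7.26% of all tested genes). DESeq2 and limma-voom called 0 (median log2 fold 0.14, beside 0.01 for all tested genes, and 0.52 without PBS replicate 1). The exception at the unadjusted level was Ror1, a receptor tyrosine kinase family member, with 4.21, 3.30 and 1.89 CPM in PM replicates 1, 2 and 3, against 0.464 and 1.48 CPM in PBS replicates 1 and 3 (edgeR adjusted p = 0.303). Btk, a kinase of B cells and myeloid cells, and Dcn, the matrix proteoglycan decorin, had log2 folds of 0.77 ± 0.43 SE and -0.15 ± 0.14 SE and overlapped between groups.

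In the genome the family is split between 2 chromosomes. In GRCm38, Retnlb (48816856 to 48818892), Retnla (48842609 to 48844461) and Retnlg (48872608 to 48874498) lie in that order on chromosome 16, with gaps of 23.7 kb and 28.1 kb, and Retn lies on chromosome 8 (3655770 to 3659818). No exon of another annotated gene overlaps theirs in GENCODE M21. Named genes within 500 kb of a member were examined whatever their result.

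Around the chromosome 16 cluster, 6 neighbours were in the tables. Dzip3 had 19.3 ± 1.80 CPM in PM (SD, n = 3) and 19.1 ± 2.04 CPM in PBS (SD, n = 2), and Cip2a, listed under an older name, had 2.39 ± 0.980 CPM in PM and 2.14 ± 0.411 CPM in PBS. Their log2 folds were 0.02 ± 0.19 SE and 0.15 ± 0.57 SE. Trat1, 6.31 kb from Retnlb, had 0 counts in every PM library and 1 count in PBS replicate 1, and Dppa2, Morc1 and Myh15 also failed the filter. The groups overlapped for both tested neighbours, of which Cip2a had only 10 to 26 counts per library. Most tested genes overlapped too, since PM lay wholly above PBS for 15.5% of them and wholly below for 16.1%.

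Around Retn, 25 neighbours were in the tables and 19 were tested. In edgeR's test 0 rose or fell, with 3 higher with p under 0.05 unadjusted (7.26% of all tested genes). The median log2 fold of the 19 was 0.17. Mcemp1, a mast cell and myeloid membrane protein 5.94 kb from Retn, had 24.3, 26.2 and 32.2 CPM in PM replicates 1, 2 and 3, against 12.1 and 19.6 CPM in PBS replicates 1 and 3 (log2 fold 0.80 ± 0.23 SE, edgeR adjusted p = 0.154). Of the DC-SIGN-related lectin genes of the Cd209 group, Cd209e had 17, 10 and 20 counts in PM, against 0 in both PBS libraries, so that the PM mean was at least 5.52-fold higher than their mean limit of 0.359 CPM. Cd209d had 7.71, 4.44 and 6.56 CPM in PM, against 2.09 and 4.32 CPM in PBS, and Cd209a 3.62, 1.29 and 6.05 CPM in PM, against 0.695 and 2.47 CPM in PBS. Reads of the Cd209 genes may be divided among close paralogs. Other tested neighbours, among them Insr, Arhgef18, Pex11g, Zfp358, Mcoln1, Pnpla6, Camsap3, Xab2, Pet100, Pcp2, Stxbp2, Trappc5, Fcer2a and Cd209b, had log2 folds from -0.47 to 0.60.

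**Figure D4:**
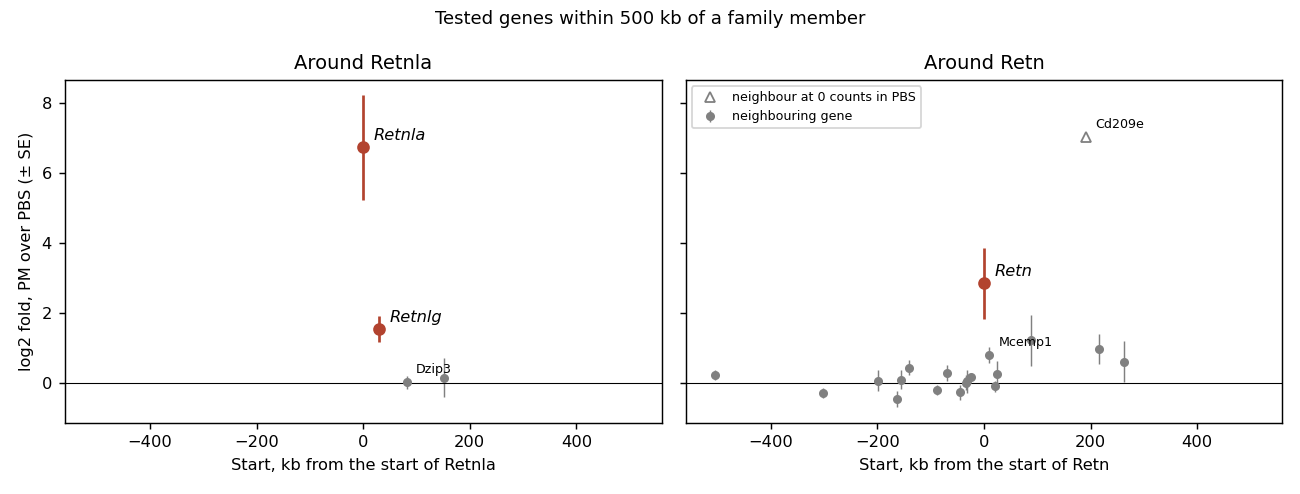
Log2 fold of PM over PBS with its standard error (vertical axis) against the distance of the start of each tested gene from the start of Retnla or Retn, in kb (horizontal axis). Family members are in red and neighbours in grey; the open triangle is Cd209e, at 0 counts in both PBS libraries, whose fitted value is no bound, and most neighbours lie near 0.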

How the data were processed

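Lung RNA of 3 PM and 3 PBS samples was sequenced. Per the labels' protocols, isolation used easy-BLUE reagent and library construction the Lexogen SENSE kit for mRNA. The submitters' processing notes name TopHat, Cufflinks and mm10, with no version. No source used here gives the counting program, annotation or strand setting. The authors deposited raw counts per gene symbol, without normalization.

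PBS replicates 1 and 2 were identical and counted as 1 library. Entries with no gene name held no counts. Where symbols repeated, only the largest entry by total was used, setting aside 44 (0.0246% of counts). Counts were filtered with filterByExpr, scaled by TMM and compared by edgeR 4.0.16 in R 4.3.3 (quasi-likelihood test, robust, two-sided, no covariates), with Benjamini-Hochberg adjustment over 14057 tested genes and a threshold of 0.05. Standard errors equal the absolute log2 fold over the root of the F statistic. SD refers to CPM over libraries. The chromosome 16 and 8 coordinates and promoters are RefSeq's for GRCm38.p6, the assembly of mm10, and promoters matched 3 of 4 members.

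The members and the 11 gene lists were chosen with earlier results of these data known. Genes named are the members, list members that passed the test or had the 3 smallest p, neighbours within 500 kb, and the 5 genes closest in profile. Any other gene was picked with its values in view, including the lung markers and brown fat genes given only as present or at 0. Alternatives were DESeq2-type scaling, other filters, DESeq2 1.42.0, limma-voom (limma 3.58.1), each library left out, all 6 tables, the replicate number as a block, and counts without Rn45s and haemoglobin genes.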

Additional observations from a re-analysis of the deposited data

How the results depend on the processing

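The folds of Retnla, Retnlg and Retn stayed above 0 under every alternative that gave a value, while calls varied. Retnla passed the threshold with DESeq2 (log2 fold 6.73), limma-voom (6.43) and all 6 tables (6.54), and Retnlg with DESeq2 (1.55) and all 6 tables (1.56), a fit that counts 1 library as 2. Leaving out 1 library at a time gave log2 folds of 5.55 to 7.54 for Retnla and 1.21 to 1.81 for Retnlg, with calls for Retnlg without PM replicate 1 or 2, and of 1.89 to 7.95 for Retn, the last fitted against a PBS library at 0 and no bound. Retn failed the filter without PM replicate 1 or 3 and with all 6 tables. The PM minus PBS difference of Retnlb was 0.0596 to 2.96 CPM. Called genes numbered 32 as reported, 275 with no filter, 81 with the CPM filter, 382 by DESeq2, 17 by limma-voom, 635 with all 6 tables and 1 to 427 with 1 library left out. The cause of these shifts was not tested. With the replicate number as a block, 353 genes (2.51%) were called and the log2 folds were 5.63 for Retnla (adjusted p = 0.370 by edgeR), 1.17 for Retnlg (0.00249) and 3.4 for Retn (0.0737). In that fit PM replicate 2 shares its number with no PBS library used and adds nothing to the contrast, and the folds lie near those without PM replicate 2 (5.55 and 1.21 for Retnla and Retnlg). The labels do not say that the numbers pair samples. Deviations of same-numbered samples had correlations of -0.03 and 0.07 across genes. With 2 PBS libraries, each PM library correlates with them equally and oppositely, so these values cannot tell whether samples are paired. With a pseudocount of 2, 3 of the 5 closest genes remained for Retnla, 1 for Retnlg and 2 for Retn. Depth limits Retnlb, Retn, Il4, Il5, Il13 and Il25, whose counts were low.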
